A study of Mus musculus with 4 samples.

Results

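Hub anchors are stretches of chromatin that take part in 10 or more listed contacts. They were taken from lists of H3K27ac HiChIP interactions of 2 classes of cortical interneuron. An anchor is one of the paired ends of an interaction, and every distinct anchor (chromosome, start and end) with at least 10 interactions in its own list was a member. This gave 259 hubs among 5842 anchors of the somatostatin (SST) list, 4.43%, and 207 hubs among 4850 anchors of the vasoactive intestinal peptide (VIP) list, 4.27%. In all, 466 of 10692 anchors were hubs. Members were chosen by their number of interactions in the same list, so that number is given here as a description only. The other list played no part in choosing the hubs of a list, and the comparisons between lists below rest on it. Comparisons within a list, such as distances and links among partners, use the interactions that defined the hubs.

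The nuclei came from the cortex of adult C57BL/6 mice of genotype Sst-cre; Sun1 or Vip-cre; Sun1. Both groups carry the Sun1 tag, and the Cre driver (Sst or Vip) decides which nuclei are tagged and captured, so a list stands for all nuclei in which that driver was or had been active. The labels name 4 samples, 2 per cell type. A single list per cell type, attached to replicate 1, was analysed, with 8278 SST and 6733 VIP interactions. The lists hold positions only, with no count or score per interaction, so the depth behind them is unknown, and no p-value was computed. All positions are mm9, as given in the lists.

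H3K27ac is an acetylation of histone H3 found at active promoters and enhancers. HiChIP joins DNA ends that lie close together in the nucleus and then keeps the joined fragments that carry the precipitated mark. In contact maps of this kind, promoters of developmental regulators and clusters of enhancers often take part in many contacts. Somatostatin and VIP interneurons are inhibitory neurons that arise in different parts of the embryonic ganglionic eminences, the medial and the caudal one, and both descend from progenitors that express the Dlx homeobox factors.

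An mm9 annotation was not used here. Where a gene is named beside an anchor, the name is background knowledge of its place in mm9 and was not read from the lists. The hub with the most interactions among those that are hubs in both lists lies at the locus of Sox2, a transcription factor of neural progenitors. Next in SST, level with a hub on chromosome 1, and first in VIP, is the hub at the pair Dlx1 and Dlx2, homeobox factors of forebrain interneurons. The promoter sequences of these 3 genes are shown because both hubs were found in both cell types. They are from RefSeq (build GRCm38.p6, 250 bases before to 50 after a gene start), run 5′ to 3′ along the gene's strand, and have CpG dinucleotides in capitals.
Sox2: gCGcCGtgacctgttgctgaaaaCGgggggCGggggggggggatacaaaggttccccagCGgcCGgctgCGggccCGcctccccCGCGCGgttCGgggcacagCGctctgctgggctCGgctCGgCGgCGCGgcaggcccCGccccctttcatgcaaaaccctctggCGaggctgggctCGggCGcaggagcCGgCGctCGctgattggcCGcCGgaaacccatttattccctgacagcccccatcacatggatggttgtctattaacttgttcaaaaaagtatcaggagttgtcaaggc
Dlx1: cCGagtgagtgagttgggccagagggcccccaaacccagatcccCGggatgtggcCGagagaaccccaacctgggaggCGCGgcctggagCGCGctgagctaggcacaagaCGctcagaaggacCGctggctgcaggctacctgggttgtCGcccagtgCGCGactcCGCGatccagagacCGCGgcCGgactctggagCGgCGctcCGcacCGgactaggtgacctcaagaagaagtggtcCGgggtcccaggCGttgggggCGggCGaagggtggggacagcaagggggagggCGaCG
Dlx2: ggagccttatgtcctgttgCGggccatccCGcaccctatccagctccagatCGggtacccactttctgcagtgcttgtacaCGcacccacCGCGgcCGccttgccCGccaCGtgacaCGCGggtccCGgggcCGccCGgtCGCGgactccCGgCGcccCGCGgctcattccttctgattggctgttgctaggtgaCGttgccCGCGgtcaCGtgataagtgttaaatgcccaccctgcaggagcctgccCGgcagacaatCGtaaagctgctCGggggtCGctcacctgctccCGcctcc
The windows hold 27, 27 and 29 CpGs in 300 bases, against a median of 7 over 32851 promoter windows of the table. At least 27 CpGs were found in 15.5% of those windows and at least 29 in 12.9%. These letters describe the loci and no contact was mapped to them.

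Most hubs stood just above the limit, and a few were far above it. The median was 12 interactions in both lists, 141 of 259 SST and 114 of 207 VIP hubs had 10 to 12, and 22 SST and 15 VIP hubs had 20 or more. The highest values were 44 in SST and 25 in VIP. Hubs were wide anchors, at a median of 34.9 kb for SST hubs (range 8.13 to 86.0) and 34.8 kb for VIP hubs (12.7 to 96.8). Other anchors had medians of 11.4 and 12.0 kb. Hubs made up 10.7% of the anchored bases in SST and 10.2% in VIP, and interactions with at least 1 hub made up 38.7% and 37.0% of the lists. Just outside the limit, 67 SST and 61 VIP anchors had 9 interactions, with median widths of 29.2 and 30.8 kb. Just inside it, 52 SST and 45 VIP anchors had 10, with median widths of 26.0 and 34.1 kb. Width and number of interactions are therefore linked, and hubs are compared below with other anchors of like width.

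**Figure D1:**
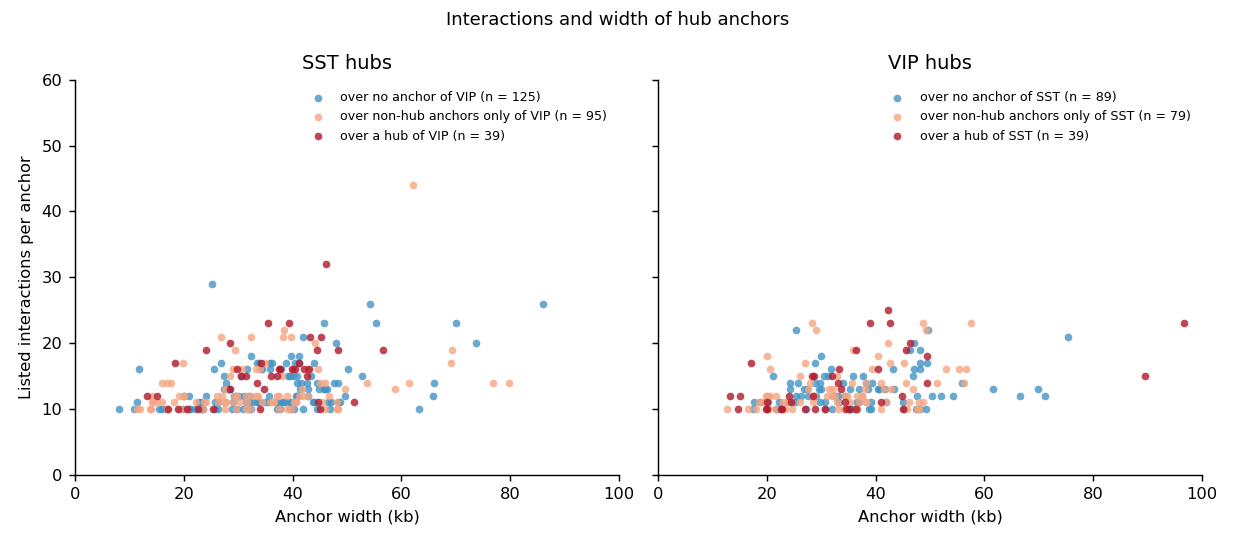
Each point is a hub, with its width in kb on the x axis and its number of listed interactions on the y axis. SST hubs are on the left and VIP hubs on the right. Colours show what the hub overlaps in the other list. Most points lie between 10 and 12 interactions, and hubs of all 3 colours are spread over the same widths.

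Hubs of one interneuron class were split by what lay at the same place in the other. In SST, 39 hubs (15.1%, exact 95% binomial interval 10.9 to 20.0) overlapped a VIP hub by at least 1 bp, 95 (36.7%, 30.8 to 42.9) overlapped only VIP anchors that were not hubs, and 125 (48.3%, 42.0 to 54.5) overlapped no VIP anchor. Among all SST anchors the same shares were 2.74%, 34.1% and 63.1%. In VIP, 39 hubs (18.8%, 13.8 to 24.8) overlapped an SST hub, 79 (38.2%, 31.5 to 45.2) only non-hub anchors and 89 (43.0%, 36.2 to 50.0) none. Among all VIP anchors the shares were 3.53%, 40% and 56.5%. Hubs thus overlapped hubs of the other list in a minority of cases, but more often than anchors in general. The intervals cover counting error alone and take hubs as independent, although hubs of a locus share contacts.

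At matched width, hubs and other anchors differed in how often they met a hub of the other list. Non-hub anchors weighted to the widths of the hubs overlapped a VIP hub in 4.71% of cases in SST, against 15.1% of hubs. In VIP they overlapped an SST hub in 5.22% of cases, against 18.8% of hubs. The hub values of the 2 lists count the same overlapping pairs from either side and are not separate observations. The gap was present in each width class that held more than 1 hub. At 10 to 20 kb it was 16.1% of 31 SST hubs (interval 5.45 to 33.7) against 2.02% of 2322 other anchors (1.49 to 2.68). At 20 to 40 kb it was 14.5% of 138 (9.08 to 21.5) against 3.59% of 892 (2.47 to 5.03). At 40 kb and over it was 15.7% of 89 (8.88 to 25.0) against 7.41% of 81 (2.77 to 15.4), intervals that overlap. In VIP the classes gave 29.4% of 17 hubs (10.3 to 56.0) against 2.81%, 17.9% of 123 (11.6 to 25.8) against 5.64%, and 17.9% of 67 (9.61 to 29.2) against 5.06% of 79 (1.40 to 12.5). Hubs also sat among more anchors. The median number of same-list anchors within 1 Mb was 20 for SST hubs and 21 for VIP hubs, and 12 and 11 for other anchors. When other anchors were weighted to both width and this number, the SST value was 4.75% and the VIP value rose to 12.3%, close to the lower bound of 13.8% for VIP hubs. The excess in VIP thus fell from 13.6 to 6.53 percentage points. Many of the other anchors were far below the limit, as 2798 of 5842 SST and 2336 of 4850 VIP anchors had 1 interaction. Near the limit, at any width, the share showed no steady step. A hub of the other list was met by 9.09, 4.48, 13.5 and 3.77% of SST anchors with 8, 9, 10 and 11 interactions. In VIP the shares were 12.3, 9.84, 26.7 and 11.4%.

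**Figure D2:**
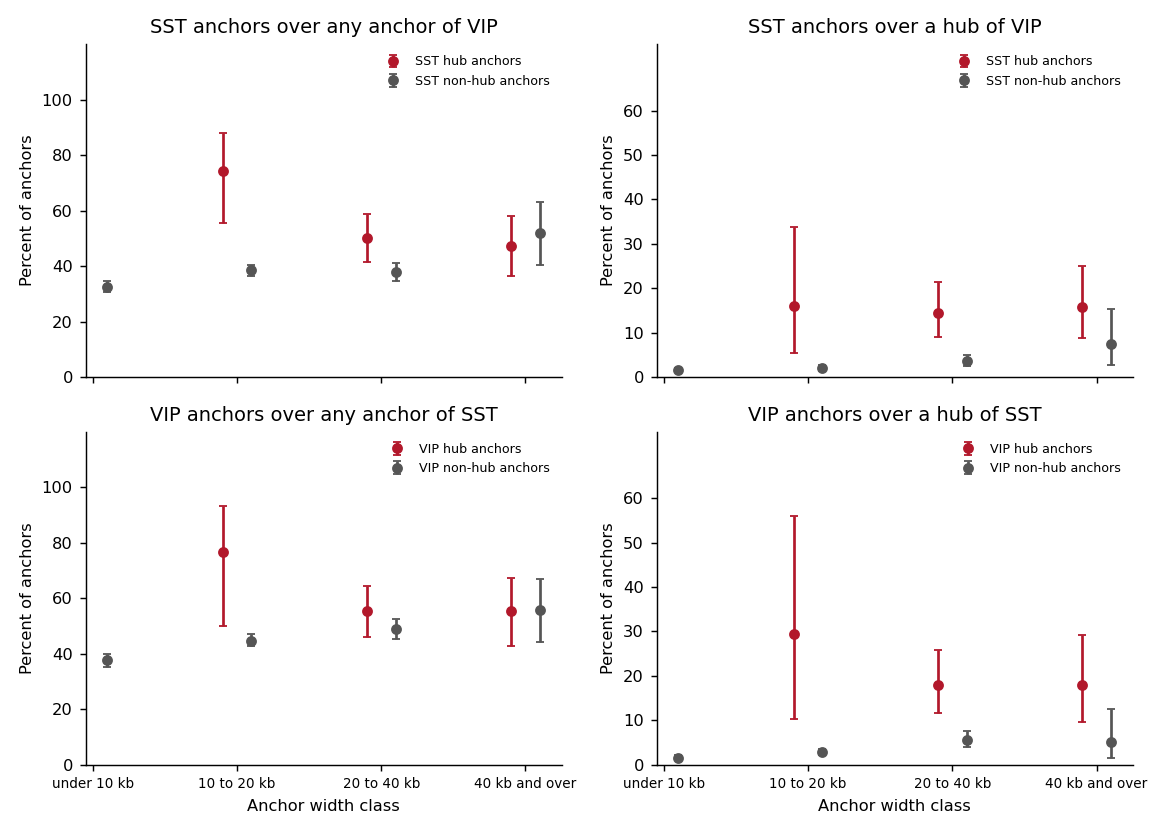
The y axes give the percent of anchors that overlap any anchor (left) or a hub (right) of the other list, and the x axes give classes of anchor width. Red points are hubs and grey points other anchors of the same list, with SST above and VIP below, and bars are exact 95% binomial intervals. The single SST hub under 10 kb is not drawn. On the right, hubs lie above other anchors in every class drawn for both, and on the left the 2 kinds lie together at 40 kb and over.

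Hubs also met an anchor of any kind in the other list somewhat more often than other anchors did as a whole. Any VIP anchor was met by 51.7% of SST hubs (45.5 to 58.0) and by 42.7% of other SST anchors at matched width. Any SST anchor was met by 57.0% of VIP hubs (50.0 to 63.8) and by 50.8% of other VIP anchors, a value inside the interval. Over all anchors these shares were 36.9% and 43.5%. Anchors just outside the limit, at any width, were much like hubs in this. With 9 interactions, 56.7% of 67 SST and 62.3% of 61 VIP anchors met one, and with 8 interactions 48.5% and 55.6%. Just inside the limit, with 10 interactions, the shares were 48.1% and 60%. The classes of width differed. At 10 to 20 kb, 23 of 31 SST hubs (74.2%, 55.4 to 88.1) and 13 of 17 VIP hubs (76.5%, 50.1 to 93.2) had a counterpart, against 38.5% and 44.7% of other anchors. At 20 to 40 kb, 50% of SST hubs (41.4 to 58.6) and 37.9% of other anchors (34.7 to 41.2) had one, and 55.3% (46.1 to 64.3) and 49% (45.3 to 52.6) in VIP. At 40 kb and over, 47.2% of SST hubs and 51.9% of other anchors had one, and 55.2% and 55.7% in VIP. With anchors weighted also by the number within 1 Mb, the values for other anchors were 48.4% in SST and 56.2% in VIP, both inside the intervals of the hubs. The counterparts of hubs also had more interactions. Where a counterpart existed, it was a hub for 29.1% of 134 SST hubs (21.6 to 37.6) against 10.3% of other anchors at matched width, and for 33.1% of 118 VIP hubs (24.7 to 42.3) against 10.2%. It had 3 or more interactions for 75.4% of SST hubs (67.2 to 82.4) against 56.9%, and for 78.0% of VIP hubs (69.4 to 85.1) against 59.8%. These values for counterparts were weighted by width only, and not by the number of anchors within 1 Mb.

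Hubs found in both cell types formed 41 overlapping pairs on 12 chromosomes. The numbers of interactions of the 2 members are given as a description. As a share of each list, SST relative to VIP ranged from 0.354 to 1.71 with a median of 0.895, and 39 of 41 pairs lay within 2-fold. Both members had to reach 10, and most hubs stood just above that limit. Hubs whose counterpart had fewer interactions fall in another class. The narrow range of ratios therefore follows in part from the rule. The Sox2 hub (SST chr3:34531738-34577892, 46.2 kb) had 32 interactions in SST and 23 in VIP (VIP anchor chr3:34531738-34574387, 42.6 kb). Of these, 19 SST and 17 VIP interactions were listed in the other cell type too. The Dlx1 and Dlx2 hub had 23 interactions in SST (chr2:71348177-71387539) and 25 in VIP (chr2:71345229-71387539), with 15 shared counted from either side. The hub at chr1:166362263-166397613 had 23 SST interactions, and its VIP counterpart had 14, all of which were also in SST. The hub at chr2:30538973-30584209 had 21 SST and 19 VIP interactions, of which 16 and 17 were shared. The pair with the largest excess in VIP lay at the locus of Mn1, a transcriptional coregulator, with 10 SST interactions (chr5:111842823-111865457) and 23 VIP interactions (chr5:111842823-111881810), of which 7 were shared on each side.

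A further hub in both lists lay within Npas3, the gene of a neuronal bHLH-PAS transcription factor. There a single VIP anchor of 96.8 kb with 23 interactions (chr12:54664991-54761796) covered 3 separate SST hubs with 16, 16 and 14. So the 41 pairs are not 41 separate loci. The overlap was 100% of the shorter anchor at the median, but in 1 pair, on chromosome 6, it was only 0.762%. Another stretch with several pairs was chr2:30288535-31143525, where 6 linked SST hubs with 10 to 21 interactions all overlapped VIP hubs. That stretch, bounded by its SST hubs, held 56 SST and 57 VIP interactions. With bounds set by the VIP hubs there, the counts were 47 SST and 57 VIP.

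**Figure D3:**
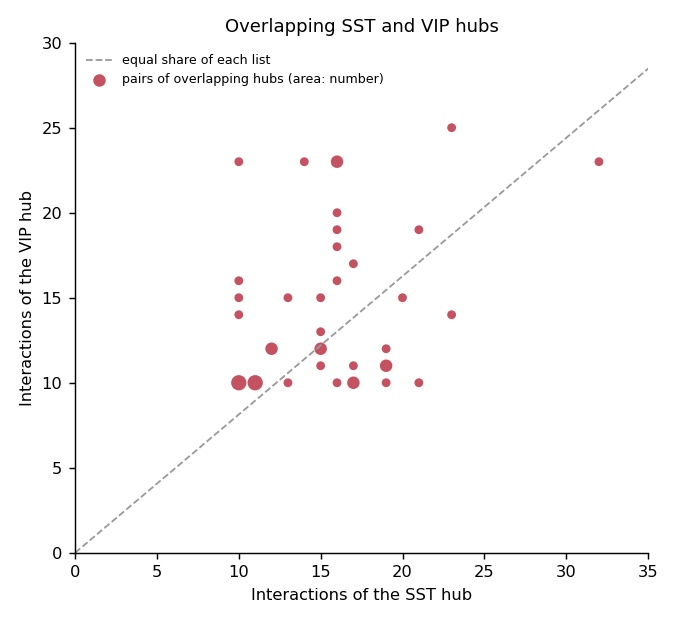
Each point is a pair of overlapping hubs, with the number of interactions of the SST hub on the x axis and of the VIP hub on the y axis, and a larger area where several pairs coincide. The dashed line marks equal shares of each list. All but 2 of the 41 pairs lie within 2-fold of it, and by the rule no pair lies below 10 on either axis.

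Hubs in both lists also kept many of the same partners. Of the 577 SST interactions of these hubs, 341 were also listed in VIP (59.1%, 55.0 to 63.1), and of the 514 VIP interactions 329 were listed in SST (64.0%, 59.7 to 68.2). Per pair, the share ran from 36.8 to 100% in SST (median 62.5) and from 27.8 to 100% in VIP (median 68.4). For hubs over non-hub anchors only, 26.2% of 1209 SST interactions (23.8 to 28.8) and 24.9% of 999 VIP interactions (22.3 to 27.7) were shared. For hubs over no anchor the share is 0 by construction. A counterpart with few interactions can share only few, so the order of these classes follows in part from how they were defined. Over all hubs, 19.7% of SST interactions (18.3 to 21.1) and 22.6% of VIP interactions (21.0 to 24.3) were shared, against 21.4% and 25.8% of the whole lists. Interactions without a hub, weighted to the same widths, were shared in 21.3% and 24.8% of cases. Weighted to the same widths and distances they were shared in 18.7% and 23.0%, both inside the intervals of the hubs. In neither list was the gap wider than 2.17 percentage points under these weightings, and in SST its sign depended on the weighting.

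Some of the busiest hubs had no counterpart with many interactions. The SST anchor with the most interactions, chr9:28686966-28749132 (62.2 kb) in the region of the cell adhesion genes Opcml and Ntm, had 44 partners, 21 upstream and 23 downstream. It overlapped a VIP anchor with 1 interaction, and none of its 44 interactions was listed in VIP. A neighbour at chr9:28342100-28381757 had 21 SST interactions over a VIP anchor with 1, and none was shared. The hub at chr11:56143527-56182072 had 22 SST interactions over a VIP anchor with 2, and 2 of its 22 were shared. The hub at chr5:27371840-27410026 had 21 interactions over VIP anchors with 3 and 1, and 5 of its interactions were shared. Counting from VIP, the hub at chr2:28041636-28090320, at the locus of Olfm1, which encodes a secreted olfactomedin protein of neurons, had 23 interactions over an SST anchor with 1. The hub at chr17:25690275-25718431, at the locus of the transcription factor Sox8, had 23 over SST anchors with 3 and 1, and 2 were shared. The hub at chr4:76061428-76110770 had 22 over an SST anchor with 1. In contrast, the hub at chr17:56494730-56552368 had 23 over 3 SST anchors with 9, 4 and 2, which sum to 15, and 8 were shared. It falls among the hubs over non-hub anchors because none of the 3 SST anchors alone reached 10.

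Other hubs lay where the other list had no anchor at all. Both SST hubs at the locus of Sox6, a transcription factor of interneurons from the medial eminence, belong here. The one at chr7:123165883-123191014 had 29 interactions, every one upstream, and the one at chr7:122642471-122728442 (86.0 kb) had 26, 9 upstream and 17 downstream. The nearest VIP anchors were 2250 and 2710 kb away, and none of the partners of either hub overlapped a VIP anchor. The SST hub at chr9:28271959-28326276 had 26 interactions and a VIP anchor at 47.8 kb. The hub at chr5:112927106-112997126 had 23, yet a VIP anchor lay 4.25 kb from it and 9 of its partners overlapped VIP anchors. Among VIP hubs, chr2:165668986-165718720 and chr14:29314681-29340016 each had 22 interactions, with the nearest SST anchor at 97.0 and 498 kb. The hub at chr16:12106072-12181375 had 21, with 975 kb to the nearest SST anchor and no partner over an SST anchor. The hub at chr12:29629989-29676999 had 20, with an SST anchor at 28.7 kb and 11 partners over SST anchors. These hubs therefore differed in how much of their surroundings was listed in the other cell type.

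Over the whole class, the median gap to the nearest VIP anchor was 299 kb for the 125 SST hubs (from 1.57 kb), and the median gap to the nearest SST anchor was 158 kb for the 89 VIP hubs (from 0.516 kb). No VIP anchor lay within 500 kb of 50 of the 125 (40%, 31.3 to 49.1), and no SST anchor within 500 kb of 27 of the 89 (30.3%, 21.0 to 41.0). For other anchors without a counterpart, at matched width, the values were 48.8% and 39.4%, each inside its interval. None of the partners overlapped an anchor of the other list for 53 of the 125 SST hubs and 20 of the 89 VIP hubs. Interactions of the other list spanned the position of 38 of the 125 and 37 of the 89. No share for other anchors stands beside these last counts, so they describe the hubs and show no trait particular to them. A contact that a list lacks fell short of its calling step, and its absence from the nuclei was not tested.

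**Figure D4:**
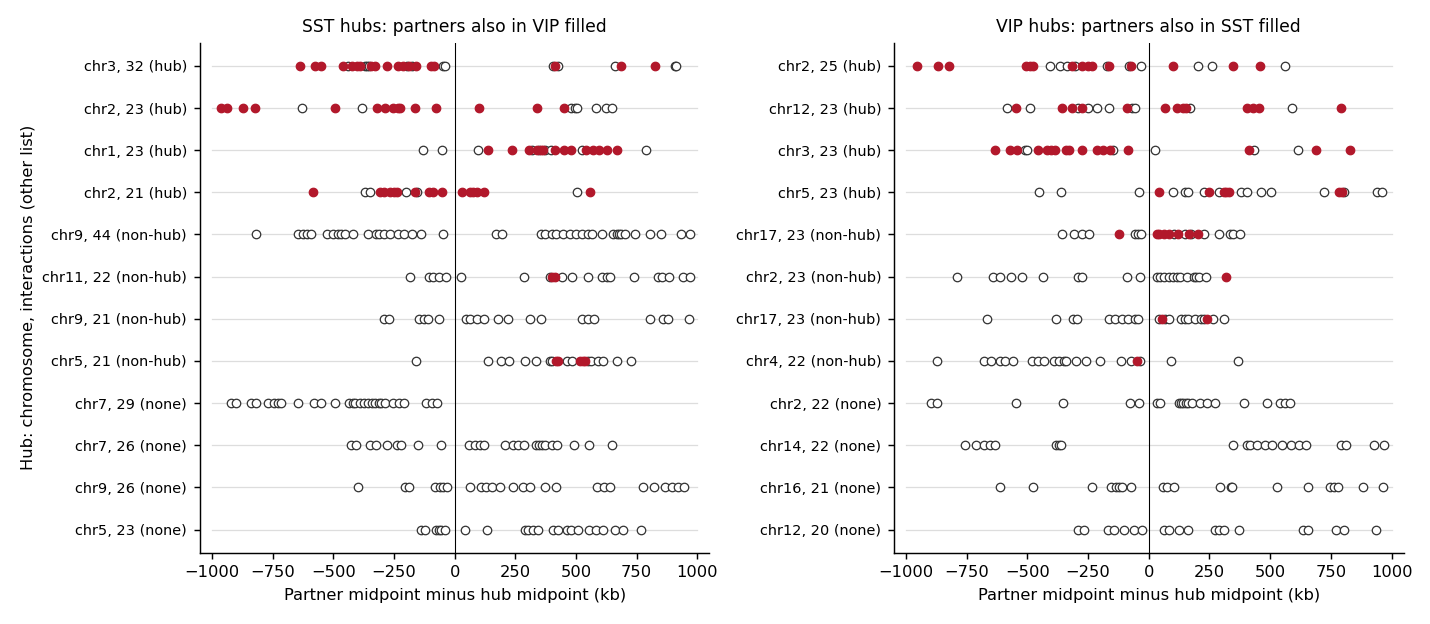
Each row is a hub named in the text, labelled with its chromosome, its number of interactions and what it overlaps in the other list, and each circle is a partner at its distance from the hub in kb along the chromosome. Filled circles are interactions also listed in the other cell type, open circles are not. Filled circles are frequent in the 4 upper rows of each panel and absent from the 4 lower rows, and the SST hub on chromosome 7 with 29 interactions has partners on one side only.

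Hubs reached farther than other anchors within their own list. The median distance between midpoints was 304 kb for SST interactions with a hub (292 to 313) and 107 kb for those without (100 to 114). In VIP it was 274 kb (261 to 286) against 114 kb (107 to 123). Distances above 600 kb made up 14.7% of SST interactions with a hub and 6.64% of those without, and 11.9% and 6.39% in VIP. The farthest partner of a hub was at a median distance of 713 kb for SST hubs and 671 kb for VIP hubs. No hub partner lay beyond 998 kb in SST or 995 kb in VIP. Whether the lists were cut near 1 Mb is not given, and such a cut would limit these distances. A hub was linked to a median of 65.7% of the anchors within 1 Mb in SST and 66.7% in VIP, and 22 SST and 19 VIP hubs were linked to all of them. Other anchors were linked to 16.7% and 19%. These values come from the interactions that defined the hubs, and an anchor with many partners has to reach beyond its nearest neighbours.

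The partners of hubs were joined to each other less often than the partners of anchors with 3 to 9 interactions. Of the pairs of partners of an SST hub within 1 Mb of each other, 27.5% of 23134 were themselves linked, against 52.3% of 17308 pairs around SST anchors with 3 to 9 interactions. In VIP the values were 28.4% of 17213 and 54.0% of 14101. Hubs were lower in all 5 classes of distance between the partners, at 35.9% against 58.5% up to 50 kb and 25.1% against 48.6% over 400 kb in SST. In VIP they were at 39.0% against 61.7% and 23.5% against 50.2%. A partner whose only interaction is with the hub cannot be linked to another. Without such partners the values were 43.0% against 69.3% in SST and 45.5% against 71.4% in VIP. A pair can be counted around several hubs, so these percentages carry no interval. The values come from the interactions that defined the hubs. A partner with few interactions can be linked to only few of the many other partners of a hub. The lower share around hubs therefore follows in part from the rule.

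**Figure D5:**
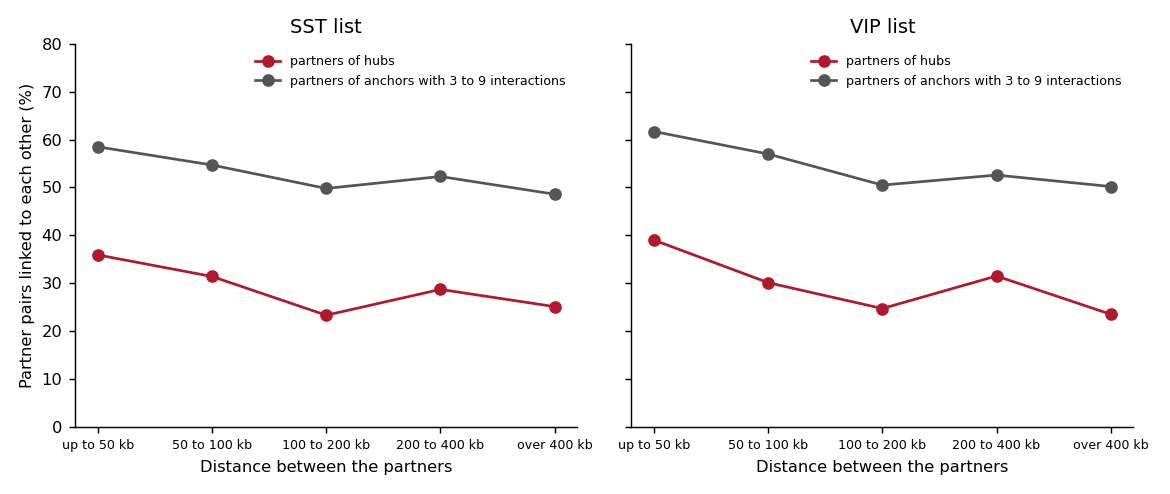
The y axis gives the percent of pairs of partners that are linked to each other, and the x axis gives the distance between the partners. Red points are partners of hubs and grey points partners of anchors with 3 to 9 interactions. Red lies below grey in all 5 classes of both lists.

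Hubs differed widely in this respect, from stars to meshes. In SST 38 of 259 hubs (14.7%) had under 10% of their partner pairs linked and 57 (22%) had 50% or more. In VIP the counts were 35 of 207 (16.9%) and 44 (21.3%). The Sox2 hub was among the purest stars. Of its 32 SST partners, 27 had no other listed interaction, 0.983% of the partner pairs were linked, and none of the partners was a hub. In VIP 17 of its 23 partners had no other interaction and 2.78% of pairs were linked. The Dlx1 and Dlx2 hub had 6.28% of pairs linked in SST and 2.49% in VIP. The Mn1 hub in VIP had 1.24%, with 17 of 23 partners listed with it alone. The SST hubs at Sox6 were at 8.62 and 10.8%, on either side of the lower limit. The 12 linked SST hubs of the Opcml and Ntm region ranged from 15.2 to 83.6% of pairs linked, with 7 of them at 50% or more. The hub there with 44 interactions was the lowest of these and had 11 hubs among its partners. A star in one list was not always one in the other. Of the 41 pairs of overlapping hubs, 5 had under 10% in both lists, 5 in SST alone and 4 in VIP alone. The side with more partners was the same in 28 of the 38 pairs that had a larger side in both lists, and the opposite in 10. Pairs share many of the same interactions, so this is no separate measurement of shape.

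Star-like hubs met an anchor of the other list in 22 of 38 cases in SST (57.9%) and 22 of 35 in VIP (62.9%). Mesh-like hubs, with 50% or more of pairs linked, did so in 20 of 57 (35.1%) and 22 of 44 (50.0%). Over all hubs the shares were 51.7% in SST and 57.0% in VIP, and over all anchors 36.9% and 43.5%. Their numbers of interactions were close, with medians of 13 for stars and 11 for meshes in both lists. Mesh-like hubs were often neighbours. Of the 57 in SST, linked groups on chromosomes 17, 9, 12 and 1 held 8, 7, 6 and 6. None of the 7 hubs of the chromosome 1 group overlapped a VIP anchor. Hubs were counted singly here, with no matching of width and no count per locus. The limits of 10 and 50% were set after the values were seen, and the difference was not tested.

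Some interactions joined 2 hubs. They made up 10.1% of the hub interactions in SST (323 of 3206) and 9.99% in VIP (249 of 2492). Of the whole lists they were 3.9% and 3.7%. By the rule hubs hold many of the listed interactions, so some links between hubs follow from it. The share to be met if anchors were paired without regard to hubs was not computed, so no preference of hubs for each other can be read from these values. Of the SST hubs, 176 of 259 belonged to 43 groups of directly or indirectly linked hubs and 83 stood alone. In VIP 153 of 207 belonged to 44 groups and 54 stood alone. The group with the most hubs was on chromosome 17 in SST, chr17:9356976-12173120, with 15 hubs, of which 12 overlapped no VIP anchor and none overlapped a VIP hub. The stretch held 185 SST and 10 VIP interactions. Here and below, each stretch was bounded by the hubs of 1 list. A higher count for that list therefore follows in part from the rule. The next, chr9:28208067-29709129 in the Opcml and Ntm region, had 12 SST hubs and held 148 SST and 15 VIP interactions. Among the SST groups of 6 or more hubs, 2 had no VIP anchor under any hub, namely chr1:93850989-94349069 with 7 hubs (51 SST and 0 VIP interactions) and chr8:120805157-121802825 with 6 (52 and 0). In VIP the group with the most hubs was chr12:29495142-30447289 with 10, which held 76 VIP and 7 SST interactions. The group chr4:75201301-76110770 had 6 VIP hubs, with 53 VIP interactions and 1 SST interaction. The Npas3 group, chr12:54344636-55171763, was the opposite case, with 6 of its 8 SST hubs over VIP hubs and 85 SST and 52 VIP interactions. With bounds set by the VIP hubs there, the counts were 71 SST and 52 VIP. In a further count, only the hub with the most interactions was kept per group, with hubs that stood alone. Of these, 17.5% of 126 SST hubs and 19.4% of 98 VIP hubs overlapped a hub of the other list. Other anchors at matched width did so in 5.17% and 5.29% of cases, and all hubs in 15.1 and 18.8%.

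Chromosomes differed in their share of hubs. Chromosome 12 had the highest share in both lists, 22 of 265 SST anchors (8.30%) and 26 of 270 VIP anchors (9.63%), and chromosome 17 came next with 24 of 301 (7.97%) and 18 of 229 (7.86%). Of the 22 SST hubs on chromosome 12, 8 overlapped a VIP hub, while on chromosome 17 this held for 1 of 24. Single groups of linked hubs weigh heavily in these values. The Npas3 group held 6 of the 8. The SST group with the most hubs held 15 of the 24 on chromosome 17, none over a VIP hub. In VIP, 1 group held 10 of the 26 hubs on chromosome 12. Chromosome 1 had 18 SST and 5 VIP hubs, and chromosome 2 had 19 SST and 30 VIP hubs. Chromosome X had no hub, with 11 SST and 15 VIP anchors listed.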

How the data were processed

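Each deposited list holds 6 columns without a header, the chromosome, start and end of the paired anchors of an interaction. Per the submitters' processing notes, HiC-Pro and build mm9 were used. How interactions were called and at which threshold, how anchors were set, and any pooling of replicates are not given in the sources used. Interactions were counted per distinct anchor. Anchors matched when they overlapped by at least 1 bp, and an interaction was shared when both anchors matched those of one interaction in the other list. For matched width, other anchors were weighted to the hubs' classes (under 10, 10 to 20, 20 to 40, and 40 kb or more), and interactions were classed by their wider anchor. The regions named were the 4 hubs with the most interactions in each list and overlap class, and the groups with the most linked hubs. Other pairs and groups, and the limits for stars and meshes, were picked after their values were seen. Members and comparisons were chosen with earlier results of these data known. Intervals are exact 95% binomial (Clopper-Pearson) or, for medians, order-statistic intervals, and cover counting error only. Depth is unknown. The steps were tested on simulated lists. Work was done in Python 3.11.15 with scipy 1.17.1, pandas 2.3.3, numpy 2.4.6 and, for plots, matplotlib 3.10.9.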

Additional observations from a re-analysis of the deposited data

How the results depend on the processing

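The overlap of hubs with hubs of the other list kept its direction, hubs above other anchors of matched width, in both lists under every setting tried. The 2 lists draw on the same overlaps between hubs, so their directions are not separate observations. Over these settings and all reported values, 138 stayed within the counting interval of the reported value (numbers of hubs, within 1.5 times), 55 moved beyond it and 5 reversed; all 5 concern the share of hub interactions also in the other list minus that of interactions without a hub ("sharing difference"), reported as -1.55 percentage points in SST and -2.17 in VIP. With hubs at 8 or more interactions there were 425 SST and 349 VIP hubs, median distances of 279 and 258 kb, 16.3 and 15.4% of hub interactions joining 2 hubs, 60.9% of anchors within 1 Mb linked in SST, and an SST sharing difference of 0.224. At 12 or more there were 154 and 127 hubs, distances of 321 and 292 kb and 7.58 and 6.42% joining 2 hubs; VIP sharing was 20.5%, a difference of -5.26. At 15 or more there were 83 and 54 hubs, distances of 350 and 297 kb, 3.96 and 1.88% joining 2 hubs and 74.3 and 74.6% linked; SST sharing was 21.7%, a difference of 3.18. These counts follow from the limit. VIP hubs at the SST rate per 1000 interactions (9 or more) had 12.2% joining 2 hubs. Anchors within 10 kb counted as overlapping gave sharing of 25.8% in SST, a difference of -3.16, and 30.3% in VIP. Merging anchors within 5 kb left 114 and 101 hubs, distances of 363 and 333 kb, 7.12 and 6.65% joining 2 hubs, 75.7 and 76.9% linked and a VIP sharing difference of -6.08. Without chromosome 2, which had the most hubs (49), SST sharing was 17.7%, a difference of -3.00. Interactions up to 200 kb left only 15 SST and 10 VIP hubs, at 84.5 and 95.7 kb, with 3.31 and 0% joining 2 hubs, sharing of 42.4 and 31.9%, and sharing differences of 21.1 and 6.52. Of these few, 66.7% in SST met any anchor, 26.0 points above others, the excess over others in meeting a hub was 19.9 points, and in VIP 30% met a hub, an excess of 28.8. Fewer interactions remain there by construction. Settings added after seeing the data were the classes of width and anchors within 1 Mb (VIP excess in meeting a hub 6.53 points), 1 hub per linked group, the classes of width and distance (sharing differences of 0.996 in SST and -0.433 in VIP) and leaving out anchors linked to the hub alone (60% linked in SST). For the other shifts the cause was not tested. No paired analysis was possible because the 2 lists carry no values by replicate, so none could be left out in turn.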
